A study of Mus musculus with 8 samples.

Results

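The 4 Hox clusters were examined in mouse nephron progenitors for the methylation of their CpGs, the cytosine-guanine pairs at which mammalian DNA is methylated. The members were 38 Hox genes, taken with their RefSeq bodies and 5 kb at each end, on chromosomes 6 (cluster A), 11 (cluster B), 15 (cluster C) and 2 (cluster D) of the build GRCm38.p6, the coordinate system of mm10. These regions held 1548 of the 441994 CpGs that reached 10 reads in each of the 8 libraries on the autosomes, and they gave 132 tiles of 1 kb with at least 3 such CpGs. Counting any read in any library, the same regions held 5510 CpGs, so most were seen too thinly to use. The assay was reduced representation bisulfite sequencing (RRBS), in which CpG-rich restriction fragments are sequenced after conversion of unmethylated cytosines. The cells were sorted by the green fluorescence of a Six2-EGFP/Cre transgene from kidneys of outbred CD1 embryos at E17.5. All embryos, in both groups, were heterozygous carriers of the transgene (Six2 Cre+/tg sires mated with wild-type CD1 females), so the Six2 promoter decided which cells entered a library. The restricted group (4 libraries) came from dams given 70% of the average daily intake once a day in pregnancy, and the unrestricted group (4 libraries) from dams with free food. Whether a library stands for an embryo, a litter or a pool is not in the labels, so the p-values below measure only the spread between these libraries, which may be technical.

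Hox genes encode homeodomain transcription factors that give cells their position along the body axis. They lie in clusters in the order in which they are used from head to tail, and genes of the same number in different clusters are paralogues, copies of 1 ancestral gene. The paralogues numbered 9 to 11 pattern the trunk level at which the kidney forms, and Hoxa11, Hoxc11 and Hoxd11 act together in the induction of the metanephric kidney. CpG-dense promoters of such regulators are commonly free of DNA methylation whether the gene is on or held silent by Polycomb proteins.

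Depth ranged from 16045992 to 37305007 reads at CpG cytosines per library, of which 34899 to 69065 lay at the 1548 Hox CpGs (median 21 to 45 reads per CpG). Weighting the shared autosomal CpGs by reads moved the mean level by -2.24 points in restricted library 1 and by -3.28 points in restricted library 2, and by between -0.575 and 0.817 points in each of the 6 remaining libraries. Reads at mitochondrial CpGs were called methylated in 0.0221 to 0.0854% of cases, so a level of that size in a Hox tile is no more than this background. Methylation alone does not check the sorted cell type: of the marker genes listed for nephron progenitors, 4 of 8 had a covered CpG near a gene end (mean level 0.366%), as had 1 of 5 for endothelium (7.15%, over 2 CpGs), 1 of 5 for blood (0.253%), 3 of 3 for stroma (0.0386%) and 1 of 3 for ureteric bud (0.0767%).

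The promoter sequences below show where the assay read the Hox genes, since a level rests only on the CpGs that were covered. Of the 38 members, 22 were matched in the RefSeq promoter table (build GRCm38.p6, 24 windows of 300 bases), and 8 of these had a covered CpG. The member windows held a median of 14.5 CpGs, against 7 in all 32851 windows of the table. Shown are Hoxd11 and Hoxa11, the kidney-level paralogues, and Hoxa5, the member with the highest level among windows of at least 5 covered CpGs (Hoxd11 was also the one with the lowest). Hoxd4 was added after its values were seen, as a promoter with a methylated CpG. Each run holds the 250 bases before the start, 5′ to 3′ on the gene's strand, with the measured CpGs in capitals.
Hoxd11 (chr2:74682073-74682322, plus strand): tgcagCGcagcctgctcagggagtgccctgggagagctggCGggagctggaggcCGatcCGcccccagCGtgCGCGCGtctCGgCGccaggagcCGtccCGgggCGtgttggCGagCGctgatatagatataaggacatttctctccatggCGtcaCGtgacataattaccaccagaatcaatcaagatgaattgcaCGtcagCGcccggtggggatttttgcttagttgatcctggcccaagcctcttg
Hoxa5 (chr6:52204588-52204837, minus strand): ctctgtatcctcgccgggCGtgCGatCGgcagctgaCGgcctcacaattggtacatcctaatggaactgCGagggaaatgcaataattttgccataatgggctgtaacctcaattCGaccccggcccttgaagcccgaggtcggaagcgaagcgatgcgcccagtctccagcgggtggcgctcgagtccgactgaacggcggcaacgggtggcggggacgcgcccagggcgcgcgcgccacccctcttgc
Hoxa11 (chr6:52245811-52246060, minus strand): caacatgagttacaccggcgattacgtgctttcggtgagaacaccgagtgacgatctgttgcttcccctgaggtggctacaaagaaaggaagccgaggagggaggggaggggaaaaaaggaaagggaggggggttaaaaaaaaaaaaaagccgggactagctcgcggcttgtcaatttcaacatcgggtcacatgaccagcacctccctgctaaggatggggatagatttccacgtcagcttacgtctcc
Hoxd4 (chr2:74721728-74721977, plus strand): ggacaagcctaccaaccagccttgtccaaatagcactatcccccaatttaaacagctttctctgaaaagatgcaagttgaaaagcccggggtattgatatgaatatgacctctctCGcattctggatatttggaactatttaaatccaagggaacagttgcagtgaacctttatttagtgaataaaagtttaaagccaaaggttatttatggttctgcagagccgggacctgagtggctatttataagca

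At Hoxd11, 19 of the 20 CpGs of the printed run were measured, at a mean of 0.0719% and at most 0.539% for a single CpG. This run lies within the RefSeq body of Hoxd11. The other Hoxd11 window (chr2:74679308-74679607, 4 CpGs), at the start of that body, had no covered CpG. At Hoxa5, an anterior trunk gene also needed in lung development, 6 of 28 CpGs were measured, at a mean of 0.993%. None of the 13 CpGs of the Hoxa11 run was covered, so the level at its start was not measured. At Hoxd4, 1 of 3 CpGs was measured, at 29.5%. Over the whole windows, Hoxd12 had a mean of 0.841% (10 CpGs), Hoxd1 0.167% (5 CpGs), Hoxd9 0.125% (8 CpGs) and Hoxd10 0% (3 CpGs), whereas Hoxb1, a hindbrain gene, reached 13.1% ± 2.82 (SD, n = 8 libraries) over 3 CpGs and Hoxd4 15.9% ± 2.93 (SD, n = 8) over 2 CpGs. The Hoxb1 mean rested mostly on 1 CpG at 38.5%.

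Most of the 4 clusters carried almost no methylation. The mean level of the Hox CpGs was 1.99% over the 8 libraries (range 1.73 to 2.14%), and 57.5% of them had no methylated read in any library, a share close to the 56.6% of the other autosomal CpGs. Levels under 5% were found at 92.2% of Hox CpGs and at 76.5% of the other autosomal CpGs. Only 44 Hox CpGs (2.84%) exceeded 20%, against 19.8% of the others, and of these 44 the long gene Hoxd3 held 22, Hoxa3 10, Hoxb9 5, Hoxa2 3, Hoxd4 2, and Hoxb1 and Hoxb8 1 each. No CpG of cluster C was above 20%. By cluster the means were 2.27% in A, 1.34% in B, 0.910% in C and 3.09% in D.

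**Figure D1:**
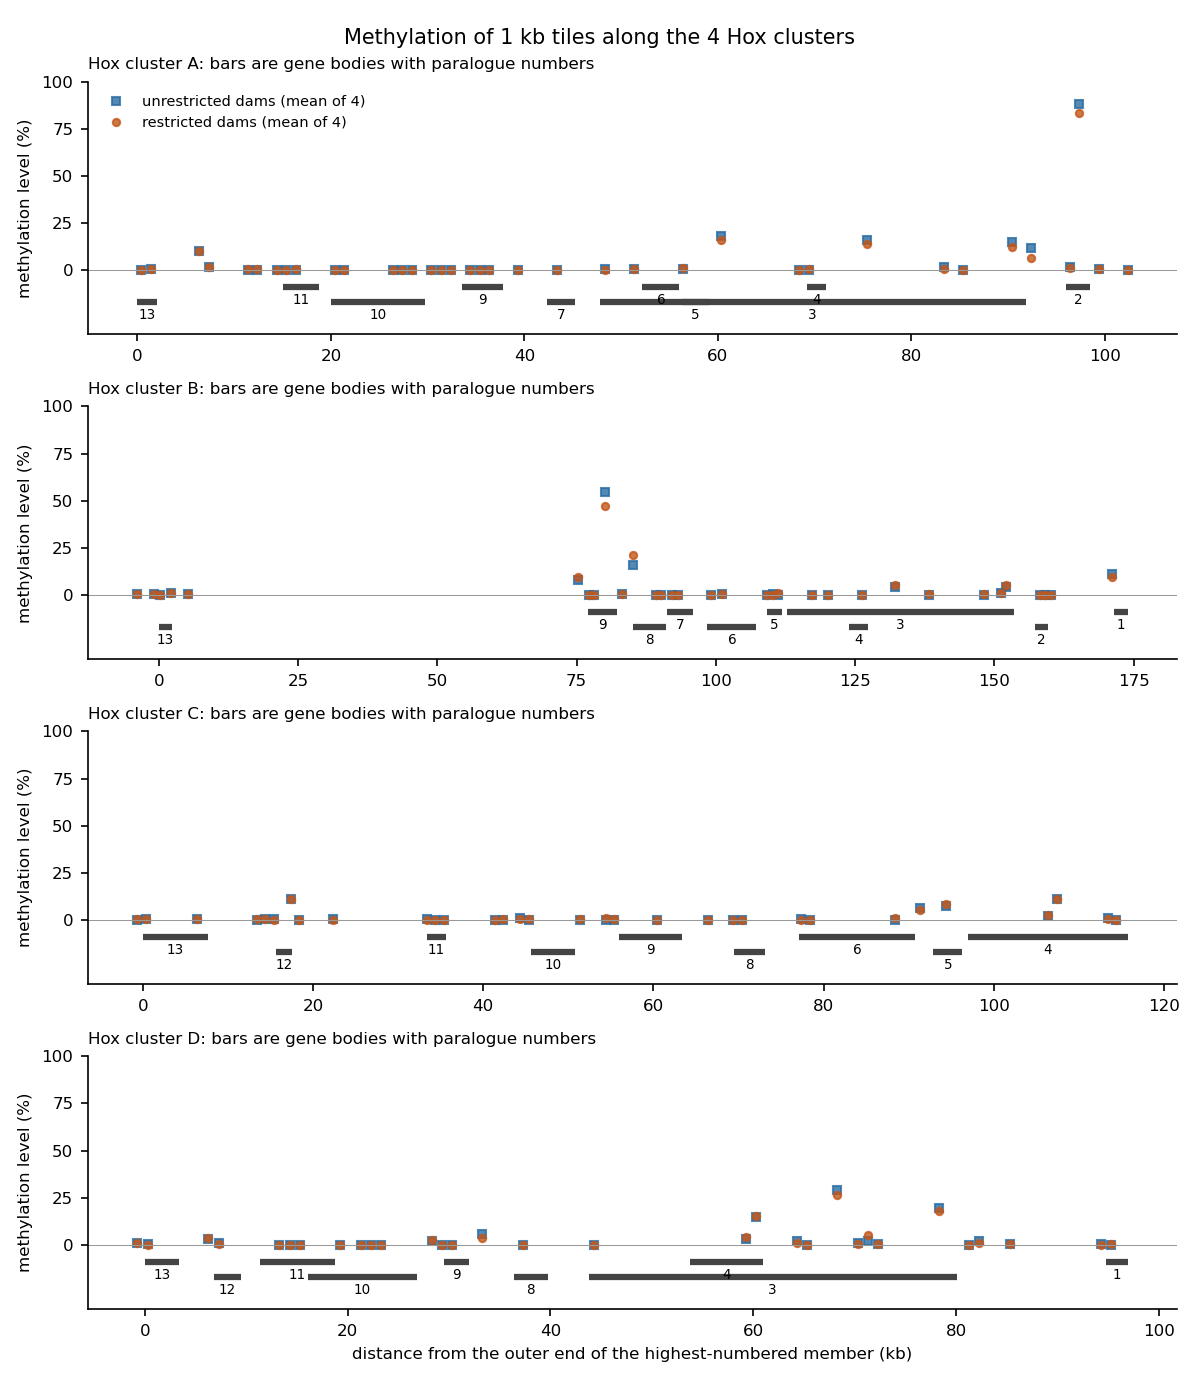
Methylation level (%, mean of 4 libraries per group) of each 1 kb tile against its distance in kb from the outer end of the highest-numbered member, with 1 panel per cluster, squares for unrestricted and circles for restricted dams, and bars below 0 for gene bodies with their paralogue numbers. Of the 132 tiles, 100 lie below 1%, and the tallest points are a Hoxa2 tile (85.5%) and a Hoxb9 tile (51.1%).

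CpGs were assigned to the nearest member body, or to the shortest of several that held them, which gave 36 genes a level. Hoxa5 and Hoxa6 received none, because the covered CpGs beside them lie within the RefSeq body of Hoxa3. Counting every CpG of the extended bodies, Hoxa5 had 14.3% over 20 CpGs and Hoxa6 11.1% over 26 CpGs. Of the 36 genes, 22 were below 1%, 8 between 1 and 5% and 6 above 5%.

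Among the kidney-level paralogues 9 to 11, 9 of 10 genes were below 1%. Hoxd10 (0.0564%), Hoxd11 (0.0699%), Hoxa10 (0.0971%), Hoxa9 (0.121%) and Hoxa11 (0.167%) were the lowest, followed by Hoxc9 (0.359%), Hoxc10 (0.450%), Hoxd9 (0.806%) and Hoxc11 (0.972%). The exception was Hoxb9, a thoracic patterning gene, at 3.23% ± 0.338 (SD, n = 8), where 1 tile of 3 CpGs was at 51.1%. Over the 8 libraries Hoxa11 lay between 0 and 0.566%, Hoxd11 between 0 and 0.226% and Hoxc11 between 0.433 and 1.68%, so that the range of Hoxc11 lay above that of Hoxd11 and overlapped that of Hoxa11.

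The anterior paralogues 1 to 4 pattern the hindbrain and neck. With each CpG assigned to 1 gene, they held 5 of the 6 genes above 5% and only 4 of 11 genes below 1%. Hoxa2 (9.50%), Hoxa3 (8.80%), Hoxd4 (7.88%), Hoxd3 (7.60%) and Hoxb1 (7.22%) were the highest, and these neighbours in the order overlapped in their ranges over libraries. CpGs above 20% were a minority at each of these genes. At Hoxb1 and Hoxd4 every CpG had a methylated read in at least 1 library. At Hoxa2, 3 of 29 CpGs were above 20%, within 48 bp and at 79.2 to 92.1%. At Hoxb1 it was 1 of 6 (38.5%), at Hoxa3 10 of 59, at Hoxd4 2 of 18 and at Hoxd3 22 of 146. Hoxb4 (0.0498%), Hoxb2 (0.0987%), Hoxd1 (0.216%) and Hoxa4 (0.303%) were in the range of the kidney-level genes. Levels of Hoxb3 (1.35%) and Hoxc4 (1.66%) lay between. Paralogues 5 to 8 had 6 of 9 measured genes below 1%, with Hoxd8 (0.0346%) and Hoxa7 (0.0357%) the lowest of the 36 genes and Hoxc5 (8.09%, over 5 CpGs) the highest of this group. This order changed when every CpG of the extended bodies was counted. Hoxa5 (14.3%) and Hoxa6 (11.1%) then lay above Hoxa2 (9.52%) and Hoxa3 (6.15%). Hoxa4 was then at 3.30% and Hoxd8 at 0.617%. Of the paralogues 12 to 13, which pattern limb ends and the urogenital tract, Hoxd13 (0.371%), Hoxc13 (0.420%) and Hoxb13 (0.423%) were below 1%, and Hoxd12 (1.18%), Hoxc12 (1.27%) and Hoxa13 (2.26%) were above.

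Gene levels depended on which CpGs were deep enough to count. With a minimum of 20 reads, Hoxd3 was 2.88% and Hoxa13 0.468%, whereas Hoxd4 was 15.5%, Hoxc4 5.56% and Hoxc12 2.33%. With a minimum of 5 reads, Hoxa3 was 4.88%.

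**Figure D2:**
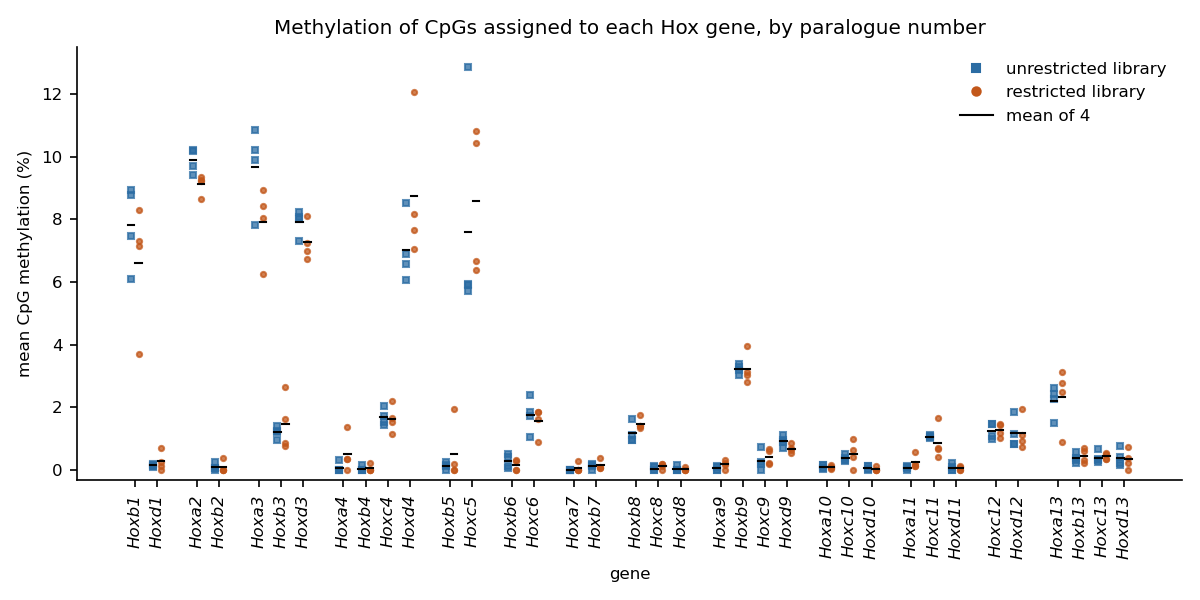
Mean level (%) of the CpGs assigned to each of 36 Hox genes, ordered by paralogue number; squares are unrestricted and circles restricted libraries, and dashes the mean of 4. The genes above 5% stand on the left, among the low numbers, and all of the genes numbered 9 to 11 except Hoxb9 have means below 1%.

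The CpGs of paralogues 9 to 11 (606 CpGs) had a mean of 0.659% ± 0.0692 (SD, n = 8), below the 4.93% ± 0.370 of paralogues 1 to 4 (460 CpGs). The difference was -4.27 points (range -4.69 to -3.57) and was negative in 8 of 8 libraries (exact two-sided sign-flip permutation test, p = 0.0078, the smallest that 8 libraries allow; adjusted p = 0.0094 over 6 contrasts). Such a test asks only whether a difference exceeds the spread between libraries, and it does not treat genes as replicates. Without the 2 Hoxd3 tiles of highest level, paralogues 1 to 4 had a mean of 3.15%, and the difference was -2.49 points, again negative in 8 of 8 libraries.

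Paralogues 12 to 13 (264 CpGs) had a mean of 0.952% ± 0.206 (SD, n = 8), and paralogues 9 to 11 differed from it by -0.294 points ± 0.246, with a negative sign in 6 of 8 libraries (exact permutation p = 0.031, adjusted p = 0.031 over 6 contrasts). The exceptions were restricted library 3 (0.167) and unrestricted library 3 (0.0108). This difference lost its call when any 1 of restricted libraries 1, 2 or 4 or unrestricted libraries 1, 2 or 4 was left out (-0.293 to -0.265, adjusted p = 0.0625, exact test). Paralogues 5 to 8 had a mean of 0.736% when each CpG went to 1 gene and 2.36% when it counted for every gene whose extended body held it.

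**Figure D3:**
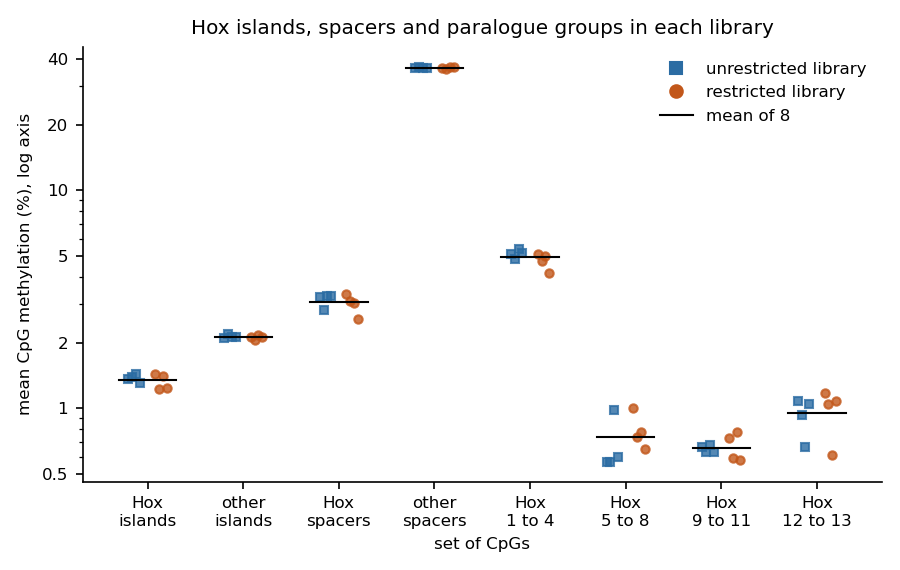
Mean CpG level (%, log axis) in each library for Hox and other autosomal islands and spacers and for the 4 paralogue groups; squares are unrestricted, circles restricted libraries, and lines the mean of 8. Other spacers lie near 36.5% and Hox spacers near 3.08%, and the squares and circles overlap in every set.

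Low methylation extended beyond the tiles in which many CpG positions were read. A tile with at least 30 CpG positions with a read in any library was called an island and any other tile a spacer. Positions without a read were not counted, so spacers can hold CpG-dense sequence. The Hoxd1 tile chr2:74762001-74763000 was a spacer with 26 positions, although the 250 bases before the Hoxd1 start, within it, held 24 CpGs. The 570 CpGs of Hox spacers had a mean of 3.08% ± 0.265 (SD, n = 8), against 36.5% ± 0.226 for the 180828 other autosomal spacer CpGs, a difference of -33.4 points with the same sign in 8 of 8 libraries (exact permutation p = 0.0078, adjusted p = 0.0094). Hox spacers held more CpG positions with a read than other spacers (median 18 against 12 per tile). Within tiles of 10 to 29 positions on both sides, the means were 2.43% and 24.9%, a difference of -22.5 points (8 of 8 libraries), with density inside this window not matched. With a minimum of 20 reads the difference of all spacers was -15.4 points. Tiles under 1% made up 70.3% of the 74 Hox spacer tiles and 28.9% of the others.

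Hox islands (978 CpGs) had a mean of 1.35% ± 0.0830 (SD, n = 8), and their difference from Hox spacers was -1.73 points in the mean over libraries (8 of 8 libraries lower, exact permutation p = 0.0078, adjusted p = 0.0094) and -2.99 points with a minimum of 20 reads. Their difference from other autosomal islands (2.12%) was -0.771 points, negative in 8 of 8 libraries with the same p, whereas the median tile went the other way: 0.136% for the 58 Hox island tiles and 0.0772% for the others. CpGs without a methylated read made up 65.8% of Hox and 76.1% of other island CpGs, and tiles over 20% made up 1.72 and 5.02%. With islands of at least 50 positions the difference in means was -0.0453 points (lower in 5 of 8 libraries, exact permutation, adjusted p = 0.297), so it was not called there. It was -1.90 points with a minimum of 5 reads, -2.03 points with levels weighted by reads and -2.49 points with islands of at least 20 positions. Without the 2 Hoxd3 tiles the Hox island mean was 0.408% and the difference -1.71 points. Spacer CpGs inside member bodies (4.61%, 307 CpGs) were higher than those outside (1.29%, 263 CpGs), by 3.32 points in the mean and in 8 of 8 libraries (exact permutation p = 0.0078, adjusted p = 0.0094), and by 1.95 points with a minimum of 5 reads, 6.20 points with 20 reads and 2.05 points with islands of at least 50 positions.

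With gaps of at most 5 kb between covered CpGs, the 3 longest stretches of low level within the clusters lay over paralogues 7 to 11. Runs of consecutive covered CpGs below 10% were ranked by length among 22682 autosomal runs. The run over Hoxc8, Hoxc9 and Hoxc10 (chr15:102962427-102991252) spanned 28826 bp with 120 CpGs and ranked 2. The run over Hoxd9, Hoxd10 and Hoxd11 (chr2:74681667-74700008) spanned 18342 bp with 150 CpGs and ranked 8. The run over Hoxa7, Hoxa9 and Hoxa10 (chr6:52217285-52234649) spanned 17365 bp, ranked 10 by length and, with 173 CpGs, 3 by number of CpGs. Ranks depended on the gap allowed: with gaps of at most 2 kb the 3 longest Hox runs ranked 4, 21 and 71, and with 10 kb they ranked 1, 2 and 3, the first joining Hoxa5 to Hoxa11 over 52465 bp and the third lying in cluster B (chr11:96283020-96326738, 43719 bp) over Hoxb8 to Hoxb3. With gaps of at most 5 kb, the longest run of cluster B lay over Hoxb13 (13545 bp, rank 33).

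In 15 of the 132 tiles (11.4%) no methylated read was seen in any library, against 7.16% of all 36513 autosomal tiles: 5 in cluster A, 2 in B, 5 in C and 3 in D. Of these, 9 were among the 44 tiles assigned to paralogues 9 to 11 and 5 among the 45 of paralogues 1 to 4. The deepest, in the Hoxa10 body (chr6:52232001-52233000), had 0 of 6387 reads, which allows a level of up to 0.047%, and the Hoxc9 tile (chr15:102981001-102982000) had 0 of 3395 reads, which allows up to 0.0884%. In cluster B these were a Hoxb3 tile (chr11:96311001-96312000, 0 of 663 reads, up to 0.453%) and a Hoxb2 tile (chr11:96352001-96353000, 0 of 1689, up to 0.178%). In cluster D a tile of the Hoxd10 body (chr2:74690001-74691000) had 0 of 1326 reads, which allows up to 0.226%. These limits use 3 reads over the total and cover counting error only, because RRBS reads without molecular identifiers are not independent molecules.

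Against this background 13 tiles exceeded 10%, of which 11 were spacers, 11 overlapped a member body and 9 belonged to paralogues 1 to 4. The most methylated tile lay in the body of Hoxa2 (chr6:52163001-52164000, 3 CpGs), at 78.6, 82.7, 88.6 and 82.6% in restricted libraries 1 to 4 and 83.3, 85.3, 92.0 and 90.5% in unrestricted libraries 1 to 4. All 8 values were high, and the groups overlapped (83.1% ± 4.12 and 87.8% ± 4.14, SD, n = 4 each; adjusted p = 0.773, logistic model). In the body of Hoxb9 (chr11:96274001-96275000, 3 CpGs), the levels were 46.9, 36.4, 61.3 and 44.4% in the restricted and 58.5, 49.7, 57.8 and 53.4% in the unrestricted libraries, again overlapping. Exons and introns were not analysed here, so these tiles are placed only within gene bodies.

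Hoxd3, a regulator of the neck vertebrae, held a CpG-dense stretch of intermediate level within its long body. In its tile chr2:74736001-74737000 (26 CpGs over 493 bp, 478 to 1276 reads per library), the levels of restricted libraries 1 to 4 were 24.6, 27.6, 28.3 and 24.8%, and those of unrestricted libraries 1 to 4 were 28.3, 29.2, 31.1 and 27.7%. The CpGs were not alike: their means over the 8 libraries ran from 2.65 to 60.4%, with 16 above 20% and 4 below 10%. A further tile of the gene, chr2:74746001-74747000 (12 covered CpGs of 66 positions), had 18.7% ± 3.54 (SD, n = 8), its CpGs running from 6.58 to 45.3%. The most methylated tile assigned to Hoxa3 (chr6:52200001-52201000, 9 CpGs), beside the Hoxa5 body, had 17.0% and CpGs from 4.00 to 40.7%. In cluster B the tile after Hoxb9 in the order was one at Hoxb8 (chr11:96279001-96280000, 18.7%), and in cluster C the highest were tiles of Hoxc12 (chr15:102938001-102939000) and Hoxc4 (chr15:103028001-103029000), at 11.02 and 11.02%.

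**Figure D4:**
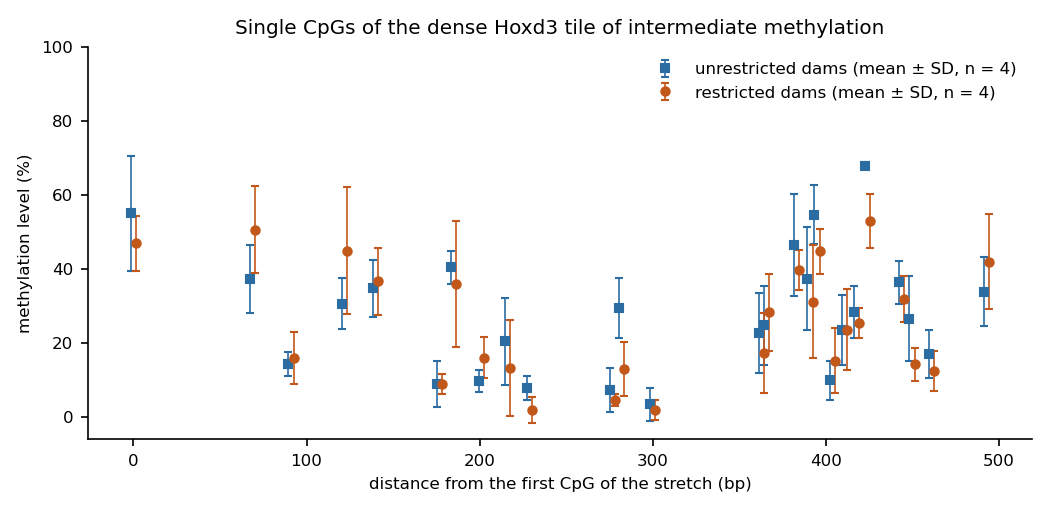
Methylation level (%, mean ± SD of 4 libraries) of the 26 CpGs of the dense Hoxd3 tile against the distance in bp from its first CpG, squares for unrestricted and circles for restricted dams. CpGs of the same tile differ widely in level, from 2.65% to 60.4% in the mean of 8 libraries.

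Maternal diet was the comparison of the study, and no Hox tile or CpG was called for it. Of all 33897 tiles tested on the autosomes, 0.0177% were called at an adjusted p under 0.05, and of the 117 Hox tiles that could be tested 0 were (logistic model, smallest adjusted p = 0.536). Of single CpGs, 0.0997% of 191637 were called and 0 of 658 in the Hox clusters (smallest adjusted p = 0.377). On the same tiles, limma called 0 with or without a variance trend, and edgeR's quasi-likelihood test called 1, at Hoxb5, out of 110 called on the autosomes. Hox tiles at an unadjusted p under 0.05 were 13 with limma (11.1%, against 6.41% of all tiles), 12 with the trend (10.3 against 6.12%) and 14 with edgeR (11.97 against 5.59%). On the Hox CpGs each of these tools called 0, with 44, 58 and 22 CpGs at an unadjusted p under 0.05 (6.69, 8.81 and 3.34%, against 6.94, 7.18 and 3.401% of all CpGs). At an unadjusted p under 0.05, 16 of the 117 Hox tiles were found (13.7%, 13 of them higher in the restricted group), against 6.32% of all tiles. Without restricted library 1 this count was 8 of 115 (6.96%, against 5.72% of all tiles), and without unrestricted library 3 it was 7 of 115 (6.09 against 6.003%). Without unrestricted library 4 it was 9 of 117 (7.69 against 5.94%), and without restricted libraries 1 and 2 it was 8 of 111 (7.21 against 5.37%). It stayed higher without restricted library 2 (12.2 against 6.19%), 3 (13.9 against 6.81%) or 4 (13.2 against 6.23%). The same held without unrestricted library 1 (12.9 against 5.97%) or 2 (9.65 against 6.625%). Of the 16 tiles, 13 had a level below 1% and in 6 a group was at 0. Among tested tiles below 1%, those 13 were 15.3% of 85 in the Hox clusters, against 5.07% of all. Tiles whose groups did not overlap were 2 of 117 in the Hox clusters (1.71%) and 2.26% of all tiles, and CpGs without overlap were 5 of 658 (0.76%) and 1.8%. Hox CpGs of unadjusted p under 0.05 were 32 of 658 (4.86%), against 5.62% of all CpGs.

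The mean Hox level was 1.95% ± 0.170 in the restricted and 2.03% ± 0.0791 in the unrestricted group (SD, n = 4 each), a difference of -0.0806 points within the spread of the libraries. In each of the 4 clusters, the 4 paralogue groups, the islands and the spacers, the ranges of the groups overlapped. The largest of these 10 differences was that of paralogues 1 to 4 (4.74% ± 0.422 against 5.11% ± 0.219, SD, n = 4 each). Among finer sets, the groups did not overlap for islands of paralogues 9 to 11 (459 CpGs, restricted 0.324 to 0.336%, unrestricted 0.253 to 0.281%). Nor did they for islands outside member bodies (161 CpGs, restricted 0.755 to 1.01%, unrestricted 0.636 to 0.735%). These differences, 0.0646 and 0.223 points, were not tested. In the other splits of islands and spacers, by body or by paralogue group, the ranges overlapped. Of the 36 genes, 15 were lower and 21 higher in the restricted group, by at most 1.78 and 1.73 points. Counting every CpG of the extended bodies, the groups did not overlap at 1 of 38 members, Hoxa11, a share (2.63%) near the 2.59% of 24117 autosomal genes. With each CpG assigned to 1 gene, they did not overlap at 2 of the 36 genes, Hoxa2 and Hoxa11. No share over all genes is given for this assignment, so the count has no background. Hoxa2, a hindbrain and neural crest gene, was at 8.65, 9.21, 9.36 and 9.26% in restricted and 9.42, 9.70, 10.2 and 10.2% in unrestricted libraries 1 to 4. In its most methylated tile, of 3 CpGs, the groups overlapped (83.1% ± 4.12 restricted, 87.8% ± 4.14 unrestricted, SD, n = 4 each). Hoxa11 was at 0.566, 0.139, 0.199 and 0.147% in restricted and 0.124, 0.0904, 0 and 0.0730% in unrestricted libraries, so that restricted library 1 was the highest.

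The tile of smallest p lay over Hoxb5 and the antisense gene Hoxb5os (chr11:96305001-96306000, 8 CpGs). It was at 3.89% in restricted library 1 and at 0 in the other 7 libraries, so the difference rests on 1 library (adjusted p = 0.536 with the logistic model, 0.0072 with edgeR and 0.750 with limma). Another Hoxd3 tile (chr2:74739001-74740000, 5 CpGs) was at 5.26, 5.26, 5.30 and 5.61% in the restricted and 1.23, 3.20, 1.29 and 3.43% in the unrestricted libraries. Here the groups did not overlap (5.36% ± 0.167 and 2.29% ± 1.19, SD, n = 4 each; adjusted p = 0.754, logistic model). The tile of Hoxa11 (chr6:52244001-52245000, 5 CpGs) was at 2.35% in restricted library 1 and at 0 in the other 7, like that of Hoxb5.

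Next in order of p were 2 island tiles of very low level. The tile between Hoxd3 and Hoxd1 (chr2:74749001-74750000, 17 CpGs), in the noncoding gene Haglr, was at 0.279, 0.246, 0 and 0.270% in the restricted and at 0 in all unrestricted libraries. The tile beside Hoxc9 (chr15:102976001-102977000, 22 CpGs) was at 0.319, 0.540, 0.164 and 0.377% in the restricted and 0, 0, 0.142 and 0.108% in the unrestricted libraries, without overlap (adjusted p = 0.760, logistic model). The sixth tile was the dense Hoxd3 tile described above (26.3% ± 1.93 restricted, 29.1% ± 1.48 unrestricted, SD, n = 4 each; adjusted p = 0.760, logistic model), in which 16 of 26 CpGs were lower in the restricted group and the groups overlapped.

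**Figure D5:**
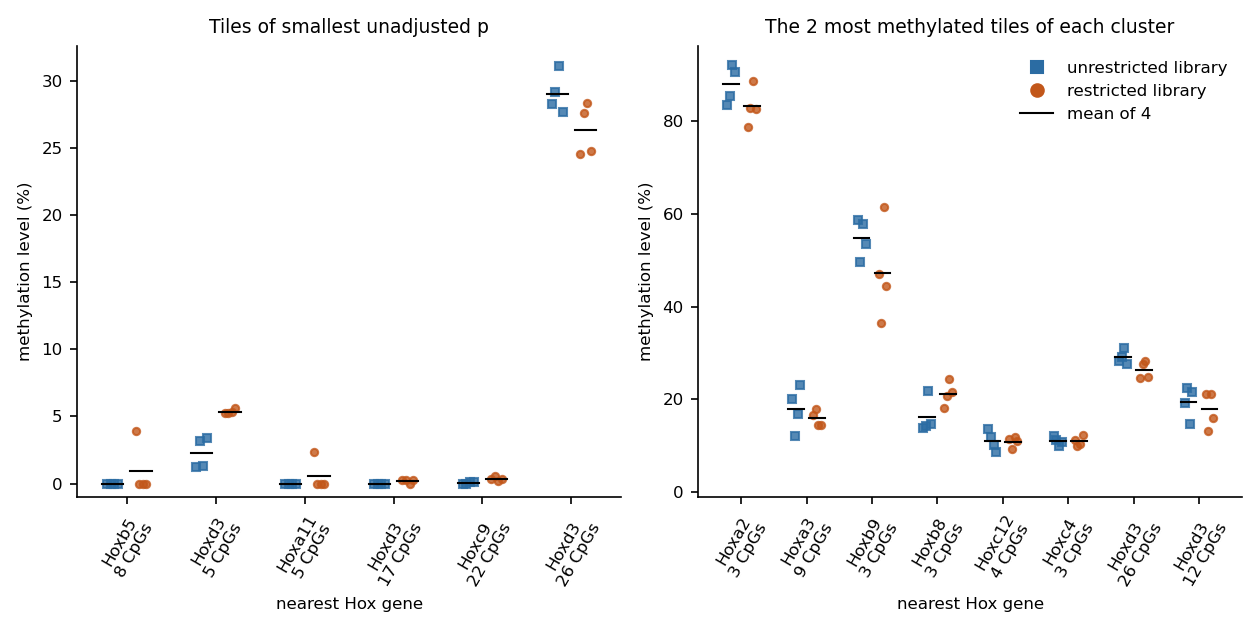
Level (%) in each library of the 6 Hox tiles of smallest unadjusted p (left) and of the 2 most methylated tiles of each cluster (right), named by the nearest Hox gene; squares are unrestricted, circles restricted libraries, and dashes the mean of 4. At Hoxb5 and Hoxa11 a single restricted library (3.89% and 2.35%) stands above 7 libraries at 0, and on the right the groups overlap in all 8 tiles.

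The single CpG of smallest p lay in Hoxd4 (chr2:74722091), 114 bases into the gene body counted from its start. It was at 9.09, 11.1, 11.5 and 6.25% in the restricted and 0, 2.13, 0 and 0% in the unrestricted libraries, with 16 to 47 reads per library, and the groups did not overlap (adjusted p = 0.377, logistic model). The next, in Hoxc13 (chr15:102922797), a gene of hair and nail formation, had 1.38% ± 1.04 in the restricted and 6.48% ± 2.40 in the unrestricted group (SD, n = 4 each; adjusted p = 0.623, logistic model). The third, in the dense Hoxd3 tile (chr2:74736325), had 13.01% ± 7.23 and 29.5% ± 8.19 (SD, n = 4 each; adjusted p = 0.623, logistic model), and its groups overlapped.

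Genes that act with the Hox proteins, listed together with noncoding genes of the clusters such as Hoxa11os and Hoxb5os, were also largely unmethylated at their ends. Some tiles of this list are therefore Hox tiles. A list of 30 Hox cofactors, regulators and kidney targets (such as the Pbx, Meis and Pknox cofactors, the Polycomb subunits Ezh2, Eed and Suz12, and Eya1, Six2 and Pax2) was matched in full. Of these genes 24 had covered CpGs near a gene end, with a mean of 0.425% ± 0.0371 in the restricted and 0.369% ± 0.0306 in the unrestricted group (SD, n = 4 each), which overlapped. None of the 155 tested tiles of the list was called (smallest adjusted p = 0.536, logistic model), 13 had an unadjusted p under 0.05 (6.32% of all tiles did), and the median difference was 0.0254 points against -0.0116 over all tiles. Levels over 20% were found in 15 of the 163 tiles of the list, and in 36.5% of the tiles outside the Hox clusters. The smallest p was at Evx2, a homeobox gene beside Hoxd13 (chr2:74657001-74658000), with 1.18, 1.00, 1.04 and 1.49% in the restricted and 0.350, 0.610, 0.511 and 0.0890% in the unrestricted libraries. The groups did not overlap there. The Hoxb5os and Hoxa11os tiles, also among the 5 of smallest p, are the Hoxb5 and Hoxa11 tiles given above. The homeodomain cofactor gene Pknox2 (0.674% and 0% in the group means, adjusted p = 0.735, logistic model) and Evx1, a homeobox gene beside Hoxa13 (3.16% ± 2.26 and 0.557% ± 0.731, SD, n = 4 each; adjusted p = 0.760, logistic model), complete them.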

How the data were processed

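RRBS data of 8 libraries were used. Per the submitters' processing notes, Trim Galore 0.3.3, cutadapt, FastQC, Bismark 0.13.1 and methylKit were used with the build mm10, and their settings are not given in the sources used here. Deposited values were used as they stand. The deposited files give, for each cytosine, the count of covering reads and the percent of them called methylated. Multiplying both gave the methylated reads (within 0.0488 of a whole number), and the strands of a CpG were added.

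Each tile or CpG was fitted by logistic regression on diet over all 8 libraries, across all autosomal units, with a moderated dispersion not under 1 (numpy 2.4.6, scipy 1.17.1) and Benjamini-Hochberg adjustment. Tiles or CpGs at 0 or at full methylation in every library were left untested. Tile levels are methylated over total reads, and gene and set levels are unweighted CpG means. Within-library differences were tested by exact two-sided sign-flip permutation. The planned permutation p-values for diet differences of set means are not given, because the members were chosen with earlier results of these data known, as were the lists; the ranges of the libraries are given in their place. Named were all members, the 6 tiles and 3 CpGs of smallest p, the 2 highest and lowest tiles of each cluster (several tie at 0), and 5 tiles of the cofactor list. Results that 4 libraries per group give for single CpGs rest on 10 or more reads each.

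On simulated tiles with the real depths (33897 tiles, 200 of them changed), the logistic model called 88% of changes of 20 points and 17% of changes of 10 points. The changed tiles were drawn only from tiles of intermediate level and were raised in the restricted group. Of the 132 Hox tiles, 100 lay below 1% and 3 above 20%, so these rates do not describe most Hox tiles. Recovery of changes in tiles of very low level was not simulated. Of its calls 17.3% were false, and 6.98% of unchanged tiles had p under 0.05, so the test is more liberal than its nominal level. The first simulation, with a fixed setting for the spread, recovered fewer of the changes of 20 points and had a smaller share of false calls. It was replaced by one with the spread estimated on the real tiles. The limit set for the share of false calls was relaxed after the outcome was seen. limma 3.58.1 on log2 M-values called 0% of the changes of 20 points, so its 0 calls carry no weight; with a variance trend, added after seeing this, it called 64% (4.35% of calls false), and edgeR 4.0.16 called 84% (29.4% false). Coverage minimums, tile sizes, flanks, island definitions, weighting, tools, the replicate number as a block and left-out libraries were tried as alternatives.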

Additional observations from a re-analysis of the deposited data

Results flagged for a closer look

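In 9 of 48 groups of 4 libraries checked, 1 library stood apart from the other 3 by more than the Dixon limit. For a group chosen blindly chance does this in about 1 case in 20, but the tiles among these groups were chosen for a small p or a high level, so that rate does not hold for them. Unrestricted library 2 was low for cluster A (2.14%, the others 2.446 to 2.501%), for cluster B (1.20%, the others 1.31 to 1.32%) and for the Hox spacers (2.82%, the others 3.22 to 3.28%), and these sets share CpGs. Unrestricted library 3 was high for paralogues 5 to 8 (0.985%, the others 0.567 to 0.598%) and for the Hoxb8 tile at chr11:96279001-96280000 (21.7%, the others 13.9 to 14.8%). Restricted library 1 was high for the Hoxb5 tile (3.89%) and for the Hoxa11 tile (2.35%), where the other 3 were at 0. Restricted library 4 was high for the Hoxd3 tile at chr2:74739001-74740000 (5.61%, the others 5.26 to 5.30%), a small gap in an even group. Restricted library 3 was at 0 for the tile between Hoxd3 and Hoxd1, where the others were at 0.246 to 0.279%.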

How the results depend on the processing

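No Hox tile or CpG was called under any coverage minimum, tile size, flank or left-out library tried, or by limma with a variance trend. The exception was 1 tile, at Hoxb5, called by edgeR; the cause was not tested, and the level there rests on 1 library. The difference of Hox and other islands lost its call with islands of at least 50 positions (-0.0453 points). That of paralogues 9 to 11 and 12 to 13 lost it without restricted libraries 1 and 2 (-0.242 points, adjusted p = 0.125, exact permutation) and ran from -0.360 to -0.265 with 1 library left out; fewer libraries raise the smallest p. The other 4 within-library contrasts kept sign and call in every alternative, but each moved in size by over 1.5 times under at least 1: paralogues 9 to 11 minus 1 to 4 to -2.49 points, Hox islands minus spacers to -2.99, Hox minus other spacers to -15.4 and -22.5, and spacers inside minus outside bodies to 1.95 and 6.20; the cause was not tested. Of the 10 set levels, 0 had groups without overlap as reported, 2 with a minimum of 20 reads, 1 without restricted libraries 1 and 2, and 0 to 2 with 1 library left out (2 without unrestricted library 2, 1 without unrestricted library 3); the cause was not tested. The diet difference of the Hox mean ran from -0.144 to -0.00912 with 1 library left out. Libraries of the same number in both groups shared only the number: deviations from the group means correlated by -0.0995 to 0.0299 for the same number and by -0.0517 to 0.0718 otherwise, and 2 of 8 libraries correlated best with their own number. With the replicate number as a block, 0 Hox tiles and 0 Hox CpGs were called. At an unadjusted p under 0.05 there were 2 Hox tiles (1.71%, against 1.64% of all tiles). There was 1 such Hox CpG (0.152%, against 0.671% of all CpGs). The paired difference of the Hox mean is by construction the same -0.0806 points. Of the gene levels under another coverage minimum or weighting, 23 moved by more than the SD over libraries and 81 by less. Depth limits single CpGs most, at 10 or more reads per library.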
